A study of Glycine max with 12 samples.

Results

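Closed flowers of soybean (Glycine max cv Magellan, stages II and III) were sampled from plants under 4 treatments, to ask how transcripts respond when water deficit and heat act together. Control plants (CT) were well watered at a day temperature of 28°C, WD plants were given 30% of the transpirable water at 28°C, HS plants were well watered at 38°C, and WD + HS plants had the restricted water at 38°C. All plants carried a Bradyrhizobium japonicum inoculum, the flowers developed during 10 d of treatment, and each of the 3 biological repeats per treatment pooled 30–40 flowers from 8–10 plants, which gave 12 RNA-seq libraries. Each treatment had a growth chamber of its own, so treatment and chamber cannot be told apart, and p-values measure the spread between pools of flowers.

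The genes described here are those whose transcript level under WD + HS departed from the sum of the 2 single stresses. For each gene, the effect of WD at 38°C (WD + HS against HS) was compared with the effect of WD at 28°C (WD against CT) on the log2 scale, and the difference is called the interaction. An interaction below 0 means that the level under WD + HS was lower than the 2 single changes added together, and an interaction above 0 that it was higher. Of the 55897 genes in the count table, 38410 had enough reads to be tested, and 1132 of them (2.95%) passed edgeR's quasi-likelihood test of the interaction, with a threshold of 0.05 on the adjusted p. The level under WD + HS was below the sum for 941 genes (2.45% of those tested) and above it for 191 genes (0.497%). At an unadjusted p under 0.05, 5222 genes passed. On the deposited FPKM values, limma called fewer genes, 363 with a pseudocount of 1 and 447 with 0.1. Of the 68 genes with an interaction whose values were examined singly, 36 lost the call with limma on FPKM at either pseudocount and 6 with DESeq2.

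Plants under combined stress are known to respond in ways that neither stress alone predicts. Heat shock transcription factors (HSFs) switch on heat shock proteins, the chaperones that keep other proteins folded, while water deficit acts largely through abscisic acid (ABA), whose synthesis is limited by the nine-cis-epoxycarotenoid dioxygenases (NCEDs). A closed flower also holds the developing pollen, whose wall and tube depend on callose, pectin, proton pumps, sugar transport and the cytoskeleton, and male development is known as a heat-sensitive step of reproduction.

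Library totals ran from 14049107 to 22415845 counted reads, and levels are given as CPM (reads scaled to a common library size) after TMM normalization. In the same fit, WD changed 622 genes at 28°C (1.62%; 0.937% were raised and 0.682% lowered) and 3515 genes at 38°C (9.15%; 3.21% were raised and 5.94% lowered). HS changed 12230 genes in watered plants (31.8%) and 11592 in WD plants (30.2%), and under WD + HS 17.7% of genes were higher and 19.1% lower than under CT. Gene names are those of the study's supplementary lists, mostly taken over from Arabidopsis relatives. They cover 2420 of the genes tested, which the study listed because they changed in these libraries, so that counts over named genes are not independent evidence of a direction. Of these named genes 8.72% had an interaction, and of the genes without a description 2.56%.

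Across the 941 genes below the sum, the median interaction was -1.65, against a median of almost exactly 0 over all genes tested. The sum of the single changes had a median of 0.32 in these genes, whereas the observed change under WD + HS against CT had a median of -1.32. In 557 of them (59.2%) the observed change ran opposite to the sum. In 240 it had the direction of the sum and was larger in size, and in 144 it had that direction and was smaller in size. The 191 genes above the sum had smaller departures, with a median interaction of 0.75. In 108 of them (56.5%) the change under WD + HS had the direction of the sum of the single changes and was smaller in size. An absolute interaction of at least 1 on the log2 scale was reached by 756 genes below the sum and 60 above it, together 2.12% of the genes tested.

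**Figure D1:**
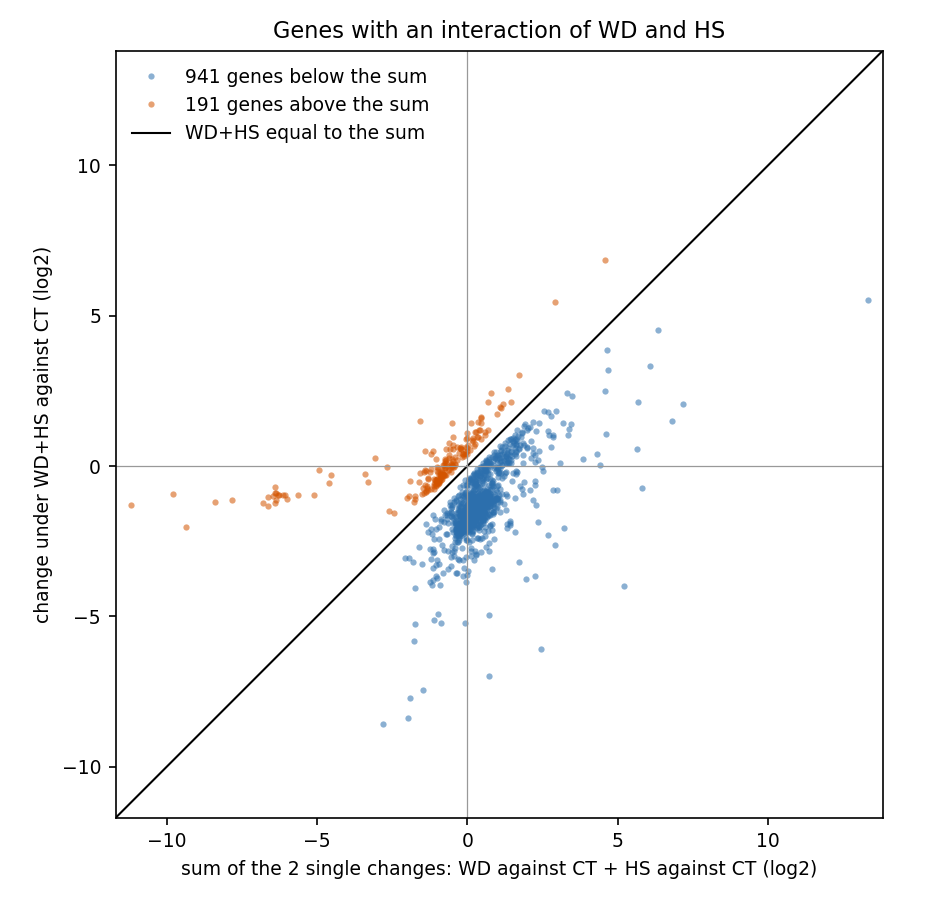
Each point is a gene with an interaction, placed by the sum of its log2 changes under WD and under HS (x axis) and by its log2 change under WD + HS against CT (y axis), with the line of equality in black. The 941 genes below the line gather where the sum is near 0 and the observed change is negative, and the 191 genes above it lie mostly close to the line, apart from a group that extends far to the left.

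The order of the 4 group means showed the same imbalance. Among the genes below the sum, the mean was highest under WD and lowest under WD + HS for 582 genes (61.8%), highest under HS and lowest under WD + HS for 162, and highest under HS and lowest under CT for 104. Among those above the sum, the mean was highest under CT and lowest under HS for 87 genes (45.5%), and highest under WD + HS and lowest under HS for 40. The effect of WD passed the test at 38°C but not at 28°C in 933 of the 1132 genes (82.4%), at 28°C but not at 38°C in 59, at both temperatures in the same direction in 30, in opposite directions in 9, and at neither in 48 genes below and 53 above the sum.

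The largest profile group, with 609 genes (53.8% of those with an interaction), had no called change under WD or HS alone and was lower under WD + HS than under either. The median level of these genes relative to the CT mean, on the log2 scale, was 0.00, 0.13 and -0.12 in the CT libraries and -1.48, -1.23 and -1.35 in the WD + HS libraries. In the HS libraries it was 0.07, -0.27 and 0.04, and in the WD libraries -0.41, 0.67 and 0.44. The 3 WD + HS libraries thus lay well below all others, while WD replicate 1 stood apart from the other WD libraries. All 3 WD + HS libraries were below the 9 others in 583 of the 609 genes (95.7%), where the share over all genes tested was 5.67%. This describes the group and is no test, since these levels placed the genes in it. Without WD replicate 1, 594 of the 609 genes still had an interaction, and 224 of the 609 then rose under WD at 28°C, so that the absence of a WD effect in this group rested on that library for part of its genes. Leaving out any library kept between 432 (without WD + HS replicate 1) and 594 of the genes called, and none changed sign. On FPKM, limma kept 146 (pseudocount 1) and 213 (pseudocount 0.1) of the 590 members it tested.

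Of the 16 tested genes of sugar transport and cleavage, 5 were below the sum and none above, in several profile groups, against 7.64% below and 1.07% above among all genes with a description. Sucrose-proton symporter 2 (GLYMA_16G157000), in the group of 609 genes, whose Arabidopsis relative loads sucrose into the phloem, had 22.3, 21.9 and 19.2 CPM in CT, 18.9, 35.5 and 35.4 in WD, 20.1, 20.0 and 23.8 in HS, and 6.18, 5.65 and 6.25 in WD + HS. The WD + HS libraries did not overlap with any other, and the interaction was -2.33 (SE 0.25, adjusted p = 7.99e-05 in edgeR). Its neighbour in the gene numbering and namesake, GLYMA_16G156900, chosen after its values were seen, fell from 32.9 ± 4.55 CPM (SD, n = 3) in CT to 9.24 ± 1.52 in WD + HS, with 30.9 ± 4.02 in HS. These paralogs can share reads, so their counts are not fully separate.

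Several further members of the group, chosen after their values were seen, carry names of genes known from pollen in Arabidopsis. How many tested genes carry such names was not counted, so these members do not speak for pollen genes as a set. The 3 tested genes described as pollen genes had no interaction. Callose synthase 5 (GLYMA_04G213100), which builds the callose wall around microspores, had 65.5, 71.9 and 65.6 CPM in CT, 51.1, 136 and 112 in WD, 92.4, 61.8 and 91.8 in HS, and 25.3, 34.1 and 28.3 in WD + HS. The interaction was -2.05 (SE 0.31, adjusted p = 0.000966 in edgeR), and all WD + HS libraries were below the lowest of the others. H(+)-ATPase 8, a plasma membrane proton pump, was present as a pair. GLYMA_13G156000 had 38.4 ± 6.55 CPM (SD, n = 3) in CT, 56.6 ± 25.2 in WD, 48.4 ± 12.1 in HS and 15 ± 0.237 in WD + HS, and GLYMA_17G103700 had 31 ± 3.96, 45.1 ± 14.5, 25.1 ± 5.86 and 9.31 ± 2.15 in the same order. Formin 3 (GLYMA_06G301700), an actin organizer, had an interaction of -2.07 (SE 0.40, adjusted p = 0.00426 in edgeR and 0.0529 with limma on FPKM at a pseudocount of 1).

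Some pectin and cytoskeleton genes were also in this group. Of 36 tested pectin genes, 29 had no interaction, 6 were below the sum and 1 above, in more than this profile group, and the median interaction was -0.37, against -0.27 over all genes with a description. An invertase/pectin methylesterase inhibitor (GLYMA_09G042200), of a family that blocks the enzymes loosening pectin, had 11.9, 11.1 and 13.9 CPM in CT, 8.93, 41.0 and 25.3 in WD, 8.65, 7.77 and 10.4 in HS, and 2.87, 2.68 and 1.82 in WD + HS (interaction -2.91, SE 0.49, adjusted p = 0.00154 in edgeR and 0.0663 or higher with limma on FPKM). The WD libraries of this gene were widely spread, with replicate 1 at the level of HS. Kinesin 4 (GLYMA_10G149500), a microtubule motor, fell from 6.70 ± 0.971 CPM (SD, n = 3) in CT to 0.954 ± 0.605 in WD + HS, where 1 library held as few as 0.303 CPM. Flavonol synthase 1 (GLYMA_06G110600), an enzyme of flavonoid synthesis, went from 20.4 ± 2.28 in CT and 22.1 ± 5.28 in HS to 6.60 ± 1.70 in WD + HS, and it was the 1 gene of 5 in the flavonoid list with an interaction (-2.34, SE 0.38, adjusted p = 0.00125 in edgeR and 0.0548 or higher with limma on FPKM).

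A pair of leucine-rich repeat genes of unknown role, GLYMA_07G164300 and GLYMA_20G008900, had interactions of -2.42 (SE 0.33) and -2.38 (SE 0.38), at adjusted p of 0.000388 and 0.00124 in edgeR. GLYMA_20G008900 lost the call with limma on FPKM at a pseudocount of 1 (adjusted p = 0.0577). Xyloglucan endotransglycosylase 6 (GLYMA_09G062600), a cell wall remodelling enzyme, had the most negative interaction of the group among genes of at least 5 CPM on average, at -3.79. Its WD libraries held 53.3, 3.58 and 11.7 CPM, so that its high WD mean came from replicate 1. Without that library the interaction was -2.18, the smallest departure among the libraries left out in turn. Limma on FPKM did not call this gene (adjusted p of 0.158 and 0.152 with pseudocounts of 1 and 0.1). A late embryogenesis abundant protein (GLYMA_13G050100) passed narrowly (-1.74, adjusted p = 0.0467 in edgeR) and lost the call in 14 of 21 refits, those without any of 10 libraries among them. Leaving out CT replicate 2, WD replicate 3 or HS replicate 3, for example, gave an adjusted p of 0.106, 0.126 and 0.123 in edgeR.

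The 3 genes described as pollen genes in the lists had no interaction, and their summed level was 46.4–49.6 CPM in CT, 46.9–57.6 in WD, 48.8–52.2 in HS and 55.7–59.9 in WD + HS. None of them was at 0 in any library. Genes of green tissue, 8 in number and also without an interaction, summed to 65.1–96.3 CPM in CT, 69.1–85.6 in WD, 85.9–97.4 in HS and 88.3–146 in WD + HS. In whole flowers, fewer cells of a type and less RNA per cell cannot be told apart, and the part of these marker levels in the results was not tested.

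The next largest group below the sum, 149 genes, rose under HS in watered plants and lost part or all of that rise when WD was added. Their median level relative to CT was 0.81, 0.85 and 0.80 in the HS libraries and -0.05, -0.03 and -0.05 in the WD + HS libraries, with the WD libraries between 0.08 and 0.13. In WD plants, 28 of them still rose with heat, 47 fell and 74 did not pass the test. Between 99 (without CT replicate 1) and 127 of the 149 remained called in refits that each lacked a library, and limma on FPKM kept 69 of 142.

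**Figure D2:**
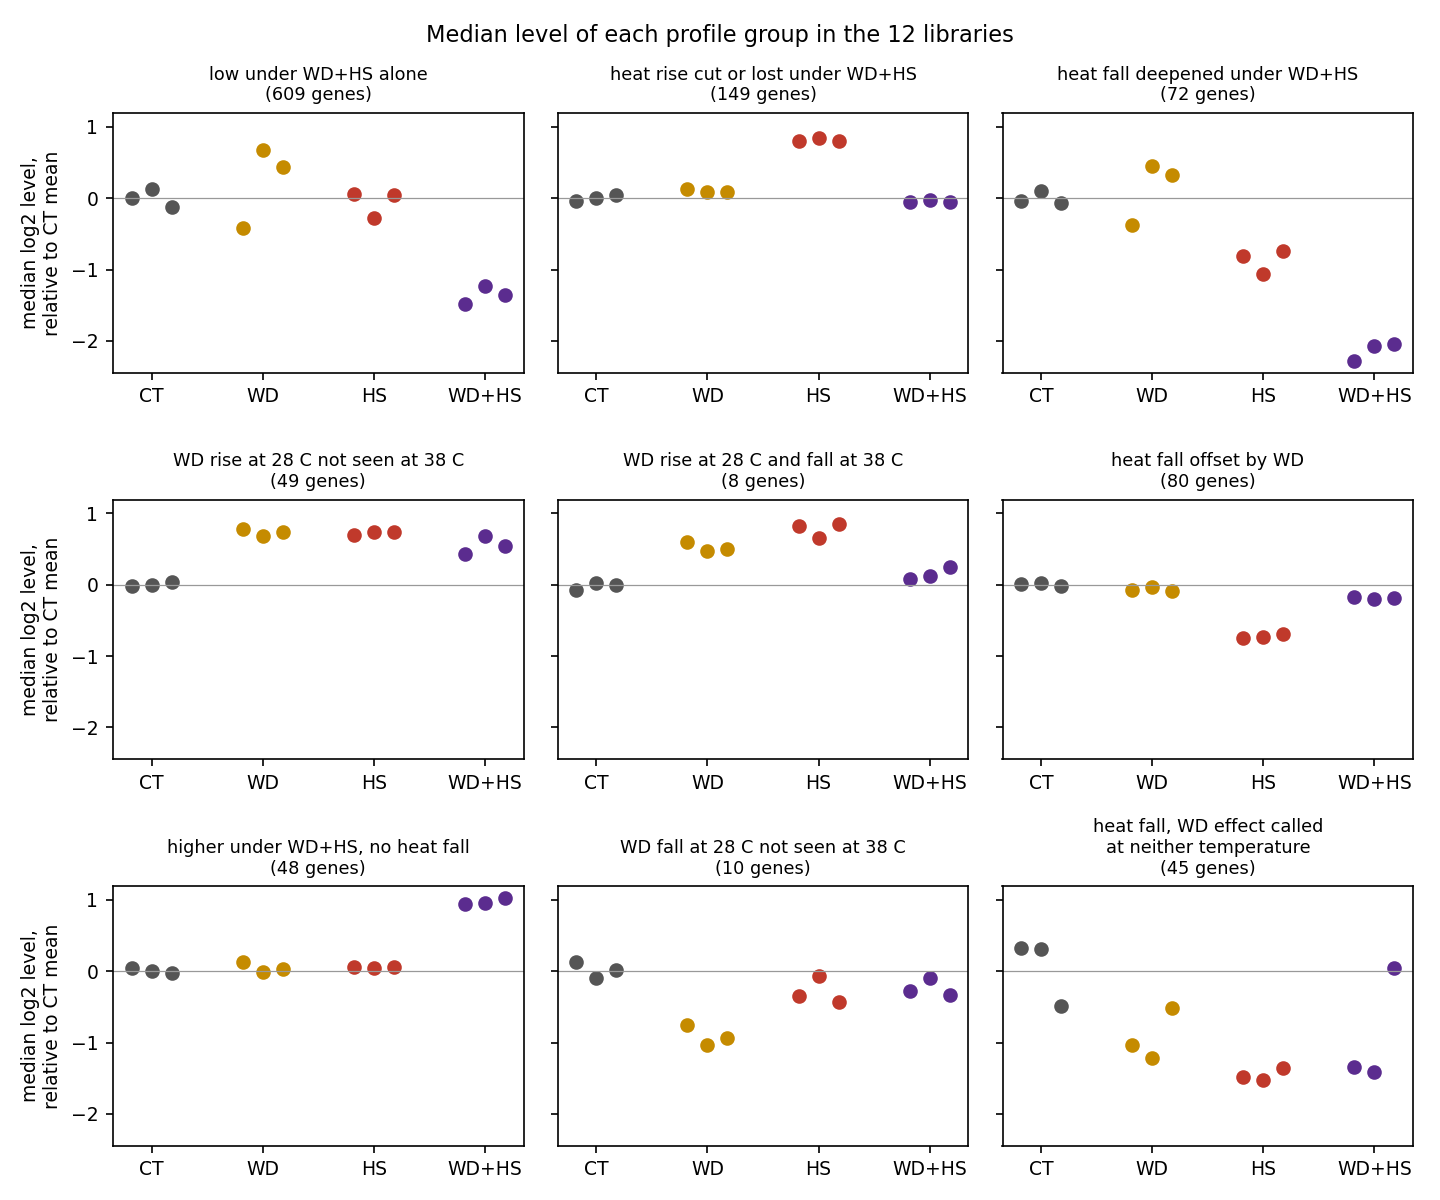
Each panel plots a profile group, with the median over its genes of the log2 level relative to the CT mean on the y axis and the 12 libraries on the x axis, 3 points per treatment. In the 609 genes low under WD + HS alone the WD + HS points lie between -1.48 and -1.23, in the 149 genes with a heat rise they return to near 0, and in the 45 genes at the lower right WD + HS replicate 3 stands at 0.04 while the other WD + HS points are at -1.34 and -1.41.

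Chaperones were among the genes of this group, and the counts given here cover all profile groups. All 43 tested small heat shock proteins rose under HS in watered plants, where 15.9% of all genes tested rose. At 38°C, WD lowered 28 of them and raised 3, against 5.94% and 3.21% of all genes tested. These genes carry names because the study listed them as changed in these libraries. The shares changed by HS or WD over all named genes were not counted, so these counts are only a description. The interaction was below the sum for 7 and above it for 2, against 7.64% and 1.07% of genes with a description. Its median was -0.65, against -0.27 over all genes with a description and almost exactly 0 over all genes. Of 34 tested HSP70, HSP90, HSP100 and co-chaperone genes, 7 were below the sum, none above, and 20 were lowered by WD at 38°C, with a median interaction of -0.55. A class II small heat shock protein (GLYMA_14G099900) had 14.5, 17.2 and 22.8 CPM in CT, 12.6, 10.2 and 11.3 in WD, a mean of 90 ± 9.46 (SD, n = 3) in HS, and 18.0, 12.9 and 17.4 in WD + HS. The WD + HS libraries overlapped with those of CT and lay far below those of HS, with an interaction of -1.80 (SE 0.21, adjusted p = 9.53e-05 in edgeR).

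HSP90.1 (GLYMA_16G178800), a cytosolic chaperone, had 87.6, 110 and 171 CPM in CT, 92.2, 50.9 and 67.4 in WD, 523, 558 and 492 in HS, and 124, 93.1 and 105 in WD + HS. Heat raised it by 2.09 on the log2 scale in watered plants, whereas WD + HS against CT gave -0.195. Between WD and WD + HS the mean still went from 70.2 to 107 CPM, so a smaller heat rise remained in WD plants. The interaction was -1.48 (SE 0.26, adjusted p = 0.00239 in edgeR and 0.0689 or higher with limma on FPKM). The HSP90.1 paralog GLYMA_09G131500, chosen after its values were seen, had 799 ± 71.2 CPM (SD, n = 3) in HS and 214 ± 33.7 in WD + HS, but its interaction of -1.28 (adjusted p = 0.0227 in edgeR) lost the call without CT replicate 1, CT replicate 2, HS replicate 2 or WD + HS replicate 2 (adjusted p of 0.0961, 0.0855, 0.0604 and 0.0848 in edgeR) and with DESeq2 (0.132).

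HSP70B kept a strong heat rise in the combination. GLYMA_17G072400, chosen after its values were seen, went from 11 ± 2.43 CPM (SD, n = 3) in CT to 321 ± 29.6 in HS and 158 ± 17.7 in WD + HS. Its interaction of -0.79 (adjusted p = 0.0146 in edgeR) lost the call in the edgeR refits without CT replicate 1 (0.0527) or CT replicate 2 (0.0616). Limma on FPKM also lost it (adjusted p of 0.0738 and 0.108 with pseudocounts of 1 and 0.1). GLYMA_02G205600 went from 4.01 ± 1.65 to 100 ± 11.2 and 37.6 ± 6.92, with an interaction of -1.49. That call was lost in the edgeR refits lacking CT replicate 1 (-1.23, adjusted p = 0.0653) or WD replicate 3 (-0.99, adjusted p = 0.145), and with DESeq2 (0.0962). HSP21 (GLYMA_18G094600), a chloroplast chaperone nearly silent at 28°C, had 34.4 ± 2.16 CPM in HS and 11.8 ± 1.97 in WD + HS. Its interaction of -1.82 (adjusted p = 0.023 in edgeR) was lost without CT replicate 2 (0.0941), CT replicate 3 (0.0612), WD replicate 2 (0.137) or WD replicate 3 (0.0808).

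Among 15 tested HSFs, 12 rose under HS in watered plants, 6 were lowered and none raised by WD at 38°C, and 2 had an interaction, both below the sum. Over all genes tested, HS raised 15.9% in watered plants, and WD at 38°C lowered 5.94% and raised 3.21%. The HSFs too carry names because the study listed them as changed, and shares over all named genes were not counted. The counts of HSFs raised or lowered are therefore only a description. HSFA6B (GLYMA_10G029600), a factor tied to ABA responses in Arabidopsis, had 7.75, 8.15 and 10.6 CPM in CT, 6.57, 3.30 and 3.23 in WD, 17.7, 18.6 and 19.5 in HS, and 2.75, 4.17 and 2.43 in WD + HS. The single changes almost cancelled in the sum (0.05), whereas the observed change was -1.51 (interaction -1.56, SE 0.34, adjusted p = 0.0109 in edgeR). An HSFA2 gene (GLYMA_04G052000), an amplifier of the heat response in Arabidopsis, had 47.6 ± 11.1 CPM (SD, n = 3) in CT, 35.0 ± 14.4 in WD, 54.9 ± 7.36 in HS and 17.2 ± 1.03 in WD + HS. Its call (-1.22, adjusted p = 0.0185 in edgeR) was lost without CT replicate 1, CT replicate 2, HS replicate 1 or WD + HS replicate 1, with adjusted p of 0.0744, 0.0505, 0.0596 and 0.0669 in edgeR, and with DESeq2 (0.0672). Other HSFA2, HSFA6B and HSFB2A genes did not pass. Among these, the HSFA2 gene GLYMA_17G227600 had 85.7 ± 9.02 CPM in HS and 41.4 ± 7.39 in WD + HS, with an interaction of 0.28 (adjusted p = 0.877 in edgeR).

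Other genes with a heat rise fell under WD + HS to below their CT level. A 2-oxoglutarate-dependent oxygenase (GLYMA_16G017500) had 4.54 ± 1.69 CPM (SD, n = 3) in CT, 6.67 ± 1.03 in WD, 14.4 ± 2.03 in HS and 2.93 ± 0.490 in WD + HS, with an interaction of -2.86 (SE 0.33, adjusted p = 9.53e-05 in edgeR). An SGNH hydrolase-type esterase (GLYMA_07G150400) had 19.7, 29.6 and 26.1 CPM in CT, 23.6, 15.6 and 18.1 in WD, 37.7, 35.5 and 40.4 in HS, and 5.12, 3.81 and 7.89 in WD + HS (interaction -2.33, SE 0.27, adjusted p = 9.53e-05 in edgeR). Xyloglucan endotransglucosylase/hydrolase 16 (GLYMA_05G150400) had 11.1 ± 1.11 CPM in HS and 2.30 ± 0.790 in WD + HS, against 6.62 ± 2.04 in CT. None of the 3 calls was lost in any of 21 refits.

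WRKY40, a repressor of defence and ABA responses in Arabidopsis, was represented by 3 soybean genes at low levels. GLYMA_17G222500, chosen after its values were seen, had 0.456, 1.22 and 0.182 CPM in CT, 3.14, 1.82 and 1.55 in WD, 4.01, 3.68 and 4.18 in HS, and 0.624, 1.27 and 0.728 in WD + HS, so that each single stress lay above the combination. The interaction was -3.90 (adjusted p = 0.00212 in edgeR). The namesakes GLYMA_17G222300 and GLYMA_14G102900 passed the same test (adjusted p = 0.00762 and 0.0031 in edgeR), at 2.66 ± 0.948 and 2.19 ± 0.562 CPM (SD, n = 3) in HS and 0.124 ± 0.166 and 0.133 ± 0.116 in WD + HS, where the highest library held 5 and 3 reads. An integrase-type (AP2 domain) factor, GLYMA_20G070100, had an interaction of -2.77 that was lost in 7 of the 12 refits with a library left out. Those libraries were CT replicate 1, WD replicate 2, HS replicates 1 and 3 and all of WD + HS, with adjusted p between 0.0546 and 0.118 in edgeR.

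Metabolic genes in this group included a glycosyl hydrolase of family 32 (GLYMA_15G024600), a family that holds the sucrose-cleaving invertases, at 4.70 ± 0.483 CPM (SD, n = 3) in HS and 1.09 ± 0.723 in WD + HS. Myo-inositol oxygenase 1 (GLYMA_08G199300) had 47.0, 58.7 and 64.2 CPM in CT, 120, 99.1 and 109 in HS, and 55.9, 56.4 and 62.0 in WD + HS. With WD at 69.8, 67.3 and 56.4, the combination returned to the CT range (interaction -1.10, SE 0.15, adjusted p = 0.000429 in edgeR). Dormancy-associated protein-like 1 (GLYMA_13G237000) also lost most of its heat rise, at 206 ± 20.4 CPM in HS, 88.9 ± 1.71 in WD + HS and 75.9 ± 4.71 in CT.

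**Figure D3:**
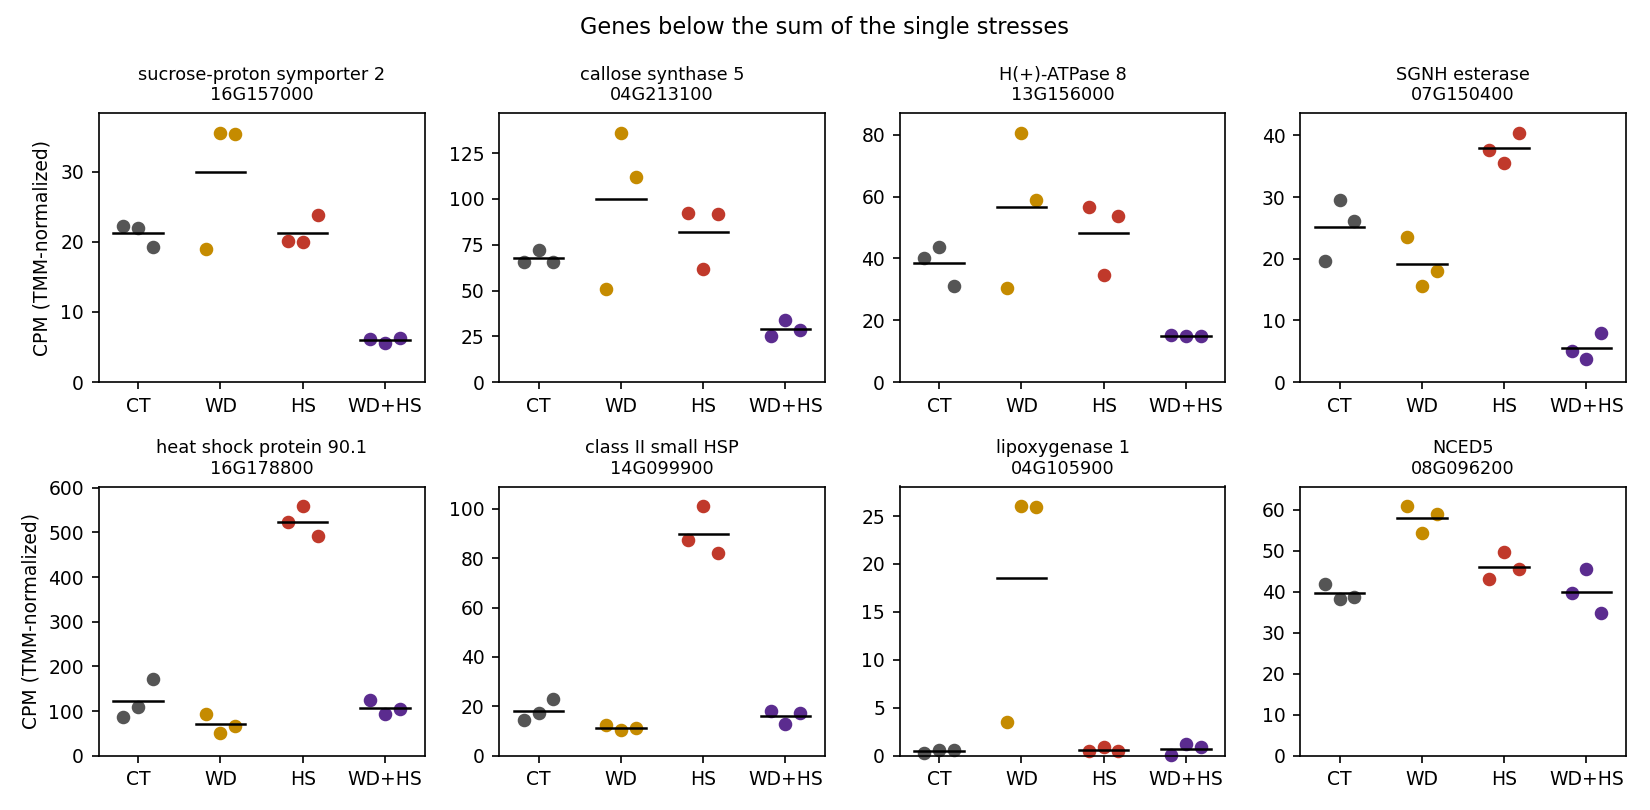
CPM (y axis, from 0) in each of the 12 libraries for 8 genes below the sum, with points for libraries and a bar for each group mean. Sucrose-proton symporter 2, callose synthase 5 and H(+)-ATPase 8 are lowest under WD + HS, HSP90.1 and the class II small heat shock protein are high under HS alone, and lipoxygenase 1 is high under WD alone.

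In 72 genes, a fall under HS was deepened by WD. Their median level was between -1.06 and -0.73 in the HS libraries and between -2.28 and -2.05 in the WD + HS libraries, and WD + HS had the lowest mean in all 72. Between 46 (without WD + HS replicate 1) and 71 remained called when a library was left out, and limma on FPKM kept 25 and 35 of 70 with pseudocounts of 1 and 0.1. A pectate lyase (GLYMA_01G042700, chosen after its values were seen), which cuts pectin, had 48.6, 53.3 and 41.3 CPM in CT, 37.1, 91.5 and 74.4 in WD, 15.1, 11.9 and 22 in HS, and 5.99, 4.59 and 4.07 in WD + HS. A pectin methylesterase inhibitor family member (GLYMA_03G220400) had 4.83 ± 1.83 CPM (SD, n = 3) in HS and 1.53 ± 0.808 in WD + HS, with an interaction of -2.34 (SE 0.47, adjusted p = 0.00607 in edgeR). A gibberellin-regulated gene (GLYMA_04G179500) was lowered by each stress, from 66.4 ± 1.69 CPM in CT to 37.7 ± 9.79 in WD and 41.3 ± 5.35 in HS, and fell to 6.90 ± 1.2 in WD + HS. The level under WD + HS was below the sum, with an interaction of -1.76 (SE 0.21, adjusted p = 0.000153 in edgeR).

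Xyloglucan endotransglucosylase/hydrolase 9 (GLYMA_13G304400), a cell wall enzyme outside these groups, was lowered by WD but not by HS alone. It had 122, 152 and 170 CPM in CT, 65.4, 76.7 and 62.4 in WD, 158, 129 and 157 in HS, and 28.7, 27.3 and 26.8 in WD + HS. The effect of WD was -1.12 at 28°C and -2.42 at 38°C, a difference of -1.31 (SE 0.16, adjusted p = 0.00015 in edgeR). The WD libraries were below all CT libraries, and the WD + HS libraries below all WD libraries.

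A rise under WD that was called at 28°C and not at 38°C was found in 49 genes, with a median WD effect of 0.73 at 28°C and -0.21 at 38°C. Between 22 (without WD + HS replicate 1) and 41 of them remained called when a library was left out, and limma on FPKM kept 10 and 12 of 44 with pseudocounts of 1 and 0.1. Lipoxygenase 1 (GLYMA_04G105900), which oxidizes fatty acids on the way to oxylipins, had 0.326, 0.543 and 0.545 CPM in CT, 3.50, 26.0 and 25.9 in WD, 0.452, 0.932 and 0.491 in HS, and 0.0624, 1.2 and 0.910 in WD + HS. Only the WD libraries were high, and replicate 1 held less than the other 2. The interaction was -5.07 (SE 1.05, adjusted p = 0.00747 in edgeR) and was lost without HS replicate 2 (-4.67, adjusted p = 0.0573). Alkenal reductase (GLYMA_03G098600), which removes reactive aldehydes, rose under WD from 1.12 ± 0.411 to 4.98 ± 2.01 CPM (SD, n = 3) and under HS to 17.2 ± 3.97, but stood at 11.2 ± 1.61 in WD + HS (interaction -2.76, SE 0.39, adjusted p = 0.000577 in edgeR).

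In the same group, NCED5 (GLYMA_08G096200) had 41.8, 38.3 and 38.8 CPM in CT, 60.8, 54.3 and 58.9 in WD, 43.2, 49.7 and 45.6 in HS, and 39.7, 45.5 and 34.7 in WD + HS. The WD libraries lay above all others, and those of WD + HS overlapped with CT and HS (interaction -0.76, SE 0.14, adjusted p = 0.00243 in edgeR, called in all of 21 refits). The auxin transport protein BIG (GLYMA_08G252600), of the same group, had a mean under HS as high as under WD. It stood at 68.4 ± 11.2, 96.4 ± 2.13, 95.4 ± 9.13 and 84.2 ± 3.17 CPM (SD, n = 3) in CT, WD, HS and WD + HS. An auxin-responsive B3 factor (GLYMA_13G112600) was also higher under HS than under CT, with means of 9.82, 16.1, 14.5 and 12.3 CPM in the same order. Its interaction was -0.95 (adjusted p = 0.0359 in edgeR). The call was lost without any of 8 libraries, the exceptions being CT replicate 3, WD replicates 2 and 3 and WD + HS replicate 1. In the auxin list 2 of 31 tested genes had an interaction.

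In 8 genes below the sum, WD passed the test in opposite directions, raising the level at 28°C and lowering it at 38°C, and the interaction of all 8 remained called without any single library. The rise at 28°C itself was less stable. It passed for 1 of the 8 without CT replicate 1, for 3 without CT replicate 2, CT replicate 3 or WD replicate 3, for 5 without WD replicate 1, and for 1 with limma on FPKM. A microtubule motor family protein (GLYMA_06G026700) had 3.39, 4.12 and 3.33 CPM in CT, 5.14, 11.3 and 10.1 in WD, 8.03, 5.75 and 7.27 in HS, and 2.25, 2.26 and 3.16 in WD + HS. Its WD effect was 1.29 at 28°C and -1.45 at 38°C (interaction -2.74, SE 0.37, adjusted p = 0.000402 in edgeR). A protein with C2 and GRAM domains (GLYMA_17G004700, chosen after its values were seen) went from 4.57 ± 0.395 CPM (SD, n = 3) in CT to 9.16 ± 1.95 in WD, and from 5.68 ± 0.493 in HS to 2.32 ± 0.535 in WD + HS. Beta-amylase 3 (GLYMA_15G098100), also chosen afterwards, moved less, with a WD effect of 0.44 at 28°C and -0.30 at 38°C.

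Of the 191 genes above the sum, 48 were higher under WD + HS without having fallen under HS. Their median level was between 0.94 and 1.03 in the WD + HS libraries and between -0.03 and 0.13 in the 9 others. All 3 WD + HS libraries exceeded the 9 others in 61 of the 191 genes (31.9%), where the share over all genes tested was 4.28%. The same levels had entered the choice of these genes, so the count is a description. From 26 (without CT replicate 1) to 46 of the 48 genes remained called when a library was left out, and limma on FPKM kept 8 and 5 of 48 with pseudocounts of 1 and 0.1.

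ABA synthesis stood on both sides of the sum. NCED3 (GLYMA_15G250100) had 8.41, 8.24 and 6.61 CPM in CT, 20.1, 15.5 and 18.6 in WD, 12.0, 9.94 and 11.3 in HS, and 73.1, 62.9 and 55.4 in WD + HS. The 4 treatments did not overlap, and the change under WD + HS (3.04) exceeded the sum of the single changes (1.72) by 1.32 (SE 0.19, adjusted p = 0.000581 in edgeR, called in all of 21 refits). The other NCED3 gene, GLYMA_08G176300, had 3.91 ± 0.301, 13.3 ± 0.286, 8.31 ± 0.209 and 40.8 ± 5.5 CPM (SD, n = 3) in CT, WD, HS and WD + HS, with an interaction of 0.53 that did not pass (adjusted p = 0.159 in edgeR). Of 8 tested genes of ABA synthesis and breakdown, NCED3 was thus the 1 above the sum and NCED5 the 1 below it. Of 18 genes described as NCED3, NCED5, ABA1, CYP707A, HSFA2, HSFA6B, HSFB2A or STOMAGEN, 4 had an interaction, and for the 14 others the adjusted p was 0.0601 or higher in edgeR. Among these others, GLYMA_20G156800 gained a call below the sum in 4 of 21 refits, DESeq2 among them (adjusted p = 0.0413). GLYMA_10G237800 and GLYMA_14G096800 each gained a call below the sum in 1 refit.

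A pair of HSP20-like chaperones lay above the sum, while 7 other small heat shock proteins lay below it and 34 had no interaction. GLYMA_14G063800 had 1.95, 0.453 and 1.21 CPM in CT, 1.21, 0.55 and 0.808 in WD, 43.2, 36.8 and 30.7 in HS, and 141, 121 and 132 in WD + HS. Heat raised it strongly, WD at 38°C raised it again by 1.83, and the interaction was 2.27 (SE 0.44, adjusted p = 0.0049 in edgeR). GLYMA_20G213900 had 12.8 ± 1.40 CPM (SD, n = 3) in HS and 29.2 ± 6.15 in WD + HS, against 0.688 ± 0.421 in CT and 0.258 ± 0.0342 in WD, where no library held more than 4 reads (interaction 2.53, SE 0.52, adjusted p = 0.00754 in edgeR). Both calls were lost without CT replicate 1, at interactions of 1.76 and 1.98 (adjusted p = 0.0641 and 0.0654 in edgeR).

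Sugar and starch genes were also found here. Galactinol synthase 1 (GLYMA_20G094500) and a raffinose synthase (GLYMA_05G003900) make the raffinose family sugars that protect cells under drought. They were the 2 genes of 7 tested in that list with an interaction, where 1.07% of genes with a description were above the sum. The median interaction of the list was -0.16 and its median WD effect at 38°C -0.04, so these 2 genes do not speak for the list. Galactinol synthase 1 had 15.6, 14.5 and 13.7 CPM in CT, 19.2, 13.4 and 15.2 in WD, 28.7, 34.7 and 27.5 in HS, and 65.0, 52.7 and 63.2 in WD + HS (interaction 0.88, SE 0.18, adjusted p = 0.00715 in edgeR and 0.0604 or higher with limma on FPKM). The raffinose synthase had 18.9 ± 1.22, 32 ± 2.98, 23.7 ± 2.67 and 72.7 ± 0.987 CPM (SD, n = 3) in CT, WD, HS and WD + HS. Beta-amylase 1 (GLYMA_09G168300), a starch-degrading enzyme, was at 98.9 ± 5.42, 138 ± 10.5, 86.6 ± 11.1 and 218 ± 13.2 CPM in the same order (interaction 0.85, SE 0.13, adjusted p = 0.000803 in edgeR and 0.0714 or higher with limma on FPKM).

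Expansin A15 (GLYMA_07G229000), which loosens cell walls, and the polyol/monosaccharide transporter 5 (GLYMA_04G014000, chosen after its values were seen) were raised by WD at both temperatures, and more at 38°C. The expansin had 16.5 ± 1.21, 26.7 ± 4.78, 20.2 ± 2.01 and 55.1 ± 5.22 CPM (SD, n = 3), and the transporter 22.7 ± 3.05, 56.7 ± 5.39, 24.6 ± 3.01 and 99.2 ± 11.2, for CT, WD, HS and WD + HS. Their interactions of 0.75 and 0.69 (adjusted p = 0.0169 and 0.018 in edgeR) were near the threshold. The expansin lost its call without CT replicate 1, HS replicate 2 or WD + HS replicate 1 (0.0528, 0.0574 and 0.0551), and the transporter without CT replicate 3, HS replicate 1, HS replicate 3 or WD + HS replicate 2 (0.0596, 0.0618, 0.0636 and 0.0586 in edgeR).

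In 80 genes above the sum, a fall under HS was smaller when WD was added. Their median level was between -0.75 and -0.69 in the HS libraries and between -0.20 and -0.17 in the WD + HS libraries, near the -0.08 to -0.03 of the WD libraries. From 45 (without HS replicate 3) to 75 of them remained called when a library was left out, and limma on FPKM kept 10 and 11 of 79 with pseudocounts of 1 and 0.1. Polygalacturonase inhibiting protein 1 (GLYMA_15G209300), which blocks pectin-degrading enzymes, had 262, 274 and 245 CPM in CT, 213, 218 and 184 in WD, 49.7, 60.0 and 52.0 in HS, and 94.7, 94.0 and 86.0 in WD + HS. WD lowered it by 0.35 at 28°C and raised it by 0.76 at 38°C, the 1 gene above the sum with called effects in opposite directions (interaction 1.11, SE 0.12, adjusted p = 8.14e-05 in edgeR).

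This group held 2 floral MADS-box genes. AGAMOUS-like 6 (GLYMA_16G200700), a floral organ regulator, had 10.3, 9.06 and 10.3 CPM in CT, 9.93, 9.08 and 14.3 in WD, 2.49, 2.69 and 3.54 in HS, and 9.93, 6.57 and 8.62 in WD + HS. The HS libraries alone were low (interaction 1.36, SE 0.29, adjusted p = 0.0101 in edgeR, called in all of 21 refits). A MADS-box factor with a K-box (GLYMA_20G153700) had 20.0 ± 1.85, 26.7 ± 5.59, 5.45 ± 1.33 and 17.2 ± 3.89 CPM (SD, n = 3) in CT, WD, HS and WD + HS. Its interaction was 1.24 (SE 0.26, adjusted p = 0.00762 in edgeR and 0.196 or higher with limma on FPKM). AGAMOUS-like 6 and this gene were the 2 with an interaction among 8 genes of floral organ identity, and the others had none. Among all genes with a description, 1.07% were above the sum. The summed level of the 8 was 51.7–61.5 CPM in CT, 51.3–69.9 in WD, 24.3–29.1 in HS and 42.8–49.8 in WD + HS, with no member at 0 in any library.

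A fall under WD that was called at 28°C and not at 38°C was seen in 10 genes. Nitrate reductase 1 (GLYMA_06G109200), the entry step of nitrate assimilation, had 42.4, 34.2 and 34.2 CPM in CT, 17.6, 9.46 and 17.2 in WD, 36.7, 36.5 and 35.2 in HS, and 30.1, 35.8 and 33.7 in WD + HS. The WD libraries alone were low (interaction 1.22, SE 0.22, adjusted p = 0.00232 in edgeR and 0.0844 or higher with limma on FPKM). A gene of unknown function (DUF761, GLYMA_13G104500) had 32.6 ± 2.43, 22.7 ± 2.30, 26.7 ± 2.99 and 33.4 ± 2.60 CPM (SD, n = 3) in CT, WD, HS and WD + HS. In this group the calls were often close to the threshold, and from 2 (without HS replicate 3 or WD + HS replicate 1) to 8 of the 10 remained when a library was left out, and limma on FPKM kept none of 9. Expansin A1 (GLYMA_09G236200) was such a gene, with an interaction of 0.56 (adjusted p = 0.0383 in edgeR) lost without any of 9 libraries, the exceptions being CT replicate 2 and WD replicates 1 and 2.

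**Figure D4:**
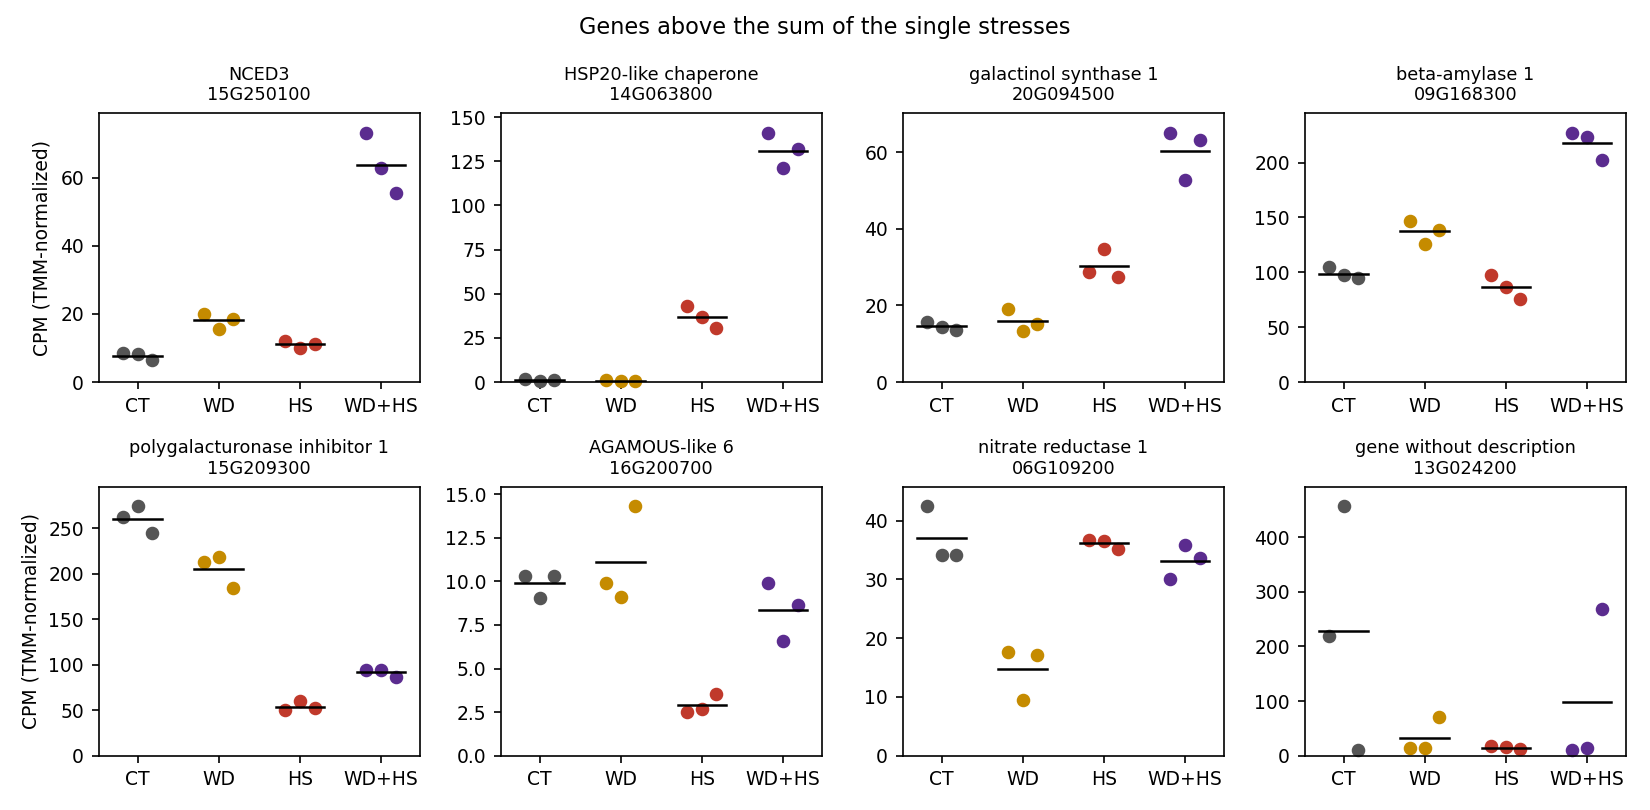
CPM (y axis, from 0) in each of the 12 libraries for 8 genes above the sum, with points for libraries and a bar for each group mean. NCED3, the HSP20-like chaperone, galactinol synthase 1 and beta-amylase 1 are highest under WD + HS, polygalacturonase inhibiting protein 1 and AGAMOUS-like 6 are lowest under HS, and nitrate reductase 1 is low under WD alone. The gene without description is high in CT replicates 1 and 2 and in WD + HS replicate 3.

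The largest positive interactions among genes of at least 5 CPM came from a further group of 45 genes, which fell under HS and had no called WD effect at either temperature. In 22 of the 45, the level in WD + HS replicate 3 was more than 3 times that of the other WD + HS libraries, and the level in CT replicate 3 was more than 3 times lower than in the other CT libraries. Of these 22 genes, 18 lie on chromosome 13 by their identifiers (GLYMA_13G011400 to GLYMA_13G024200). GLYMA_13G024200, which has no description, had 219, 456 and 9.82 CPM in CT, 13.3, 13.2 and 69.9 in WD, 18.3, 15 and 11.5 in HS, and 11.2, 14.6 and 268 in WD + HS. GLYMA_09G164000 showed the same libraries high, at 191, 286 and 11.1 CPM in CT and 6.68, 9.68 and 226 in WD + HS. Their interactions of 5.57 and 5.47 (adjusted p = 0.031 and 0.0329 in edgeR) fell to 2.65 and 2.17 without WD + HS replicate 3 (adjusted p = 0.339 and 0.456). Limma on FPKM called none of the 40 genes of this group that it tested. None of the 22 genes had an interaction without WD + HS replicate 3. Without CT replicate 1, CT replicate 2 or WD replicate 2, 2, 1 and 7 of them did, and without HS replicates 1, 2 or 3, 2, 3 and 1 did. DESeq2 called 2 of the 22.

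Chromosome 13 held 39 of the 191 genes above the sum, which was 1.43% of its tested genes, while the other chromosomes ranged from 0.11% to 0.77%. Of the 39, 18 were the genes just described, and without them 21 remained, which was 0.77% of the tested genes of chromosome 13. For genes below the sum the range over chromosomes was from 1.70% to 3.14%, with chromosome 13 at 2.46%. Of the genes placed on chromosomes, 85 of 939 below the sum (9.05%) and 17 of 191 above it (8.90%) were next to another called gene of the same direction in the order of tested identifiers. Over all genes tested, 2.45% were below the sum and 0.497% above it. A gene can have a neighbour on each side and no expected share was worked out, so these counts are not read as clustering. The genes above include those of chromosome 13 just described, whose identifiers lie close together.

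The shares to read the other lists against are 2.95% of all genes tested and 8.72% of those with a description, at which a list of this size holds few called genes or none. No gene had an interaction among 12 aquaporins, 33 peroxidases and glutathione transferases, 17 MYB factors, 17 calcium signalling genes and 21 lipid transfer genes. Of 24 NAC and WRKY factors, 3 were below the sum, all of them WRKY40, and of 23 ethylene response and AP2 factors 1 was above and 1 below. The gene above, GLYMA_17G194100, had 3.75 ± 0.788, 1.95 ± 0.323, 8.91 ± 0.504 and 10.4 ± 0.888 CPM (SD, n = 3) in CT, WD, HS and WD + HS, with an interaction of 1.14 (adjusted p = 0.0337 in edgeR) that was lost in 8 of 12 refits with a library left out. Those refits lacked CT replicate 1 or 3, WD replicate 3, any HS replicate, or WD + HS replicate 1 or 3, with adjusted p between 0.0545 and 0.106 in edgeR. Of 32 cell wall loosening genes, 4 were below the sum and 2 above, and of 11 ABA response genes 1 was below.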

How the data were processed

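RNA-seq was performed on 12 libraries, 3 for each of 4 treatments. After trimming (Trim Galore) and alignment to the soybean reference (HISAT2 2.2.1), the authors deposited a table of raw counts and a table of FPKM from Cufflinks. The program behind the deposited counts is not given in the sources used here.

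Counts were tested with edgeR (4.0.16, R 4.3.3) after filterByExpr (minimum count 10) and TMM normalization, in a quasi-likelihood fit of the 4 groups, with Benjamini-Hochberg adjustment over 38410 genes and a threshold of 0.05. The SE is the absolute log2 value divided by the square root of F. On simulated counts, 166 of 200 genes changed by 1.5 on the log2 scale were recovered for the interaction among 37825 genes tested, and 5 unchanged genes were called. The simulation gave all genes the same dispersion and placed the changes under WD + HS alone, in genes that were not of few reads. It held no separate WD or HS effects, so these figures do not measure recovery in the real libraries. The members and gene lists were chosen with earlier results of these data known. Named genes were the 2 largest interactions each way, the 10 largest each way with a description (mean of at least 5 CPM), up to 2 each way per list (at least 1 CPM), the 2 smallest p per class of departure and direction, and the NCED3, NCED5, ABA1, CYP707A, HSFA2, HSFA6B, HSFB2A and STOMAGEN genes, of gene families that the study discusses. Others are said to be chosen after their values were seen. Alternatives were DESeq2 (1.42.0), other normalizations and filters, limma (3.58.1) on log2(FPKM + 1) or log2(FPKM + 0.1), a replicate block and each library left out. Same-numbered libraries did not deviate together. Sequences and promoter motifs were not analysed here.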

Additional observations from a re-analysis of the deposited data

Results flagged for a closer look

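The effect of WD differed between 28°C and 38°C in 1132 genes by the interaction test of edgeR. In 9 of them the effect passed the test in opposite directions at the 2 temperatures. The interaction was -2.3 for GLYMA_17G004700, -2.74 for GLYMA_06G026700, -1.4 for the ankyrin repeat gene GLYMA_14G038600 and -0.748 for GLYMA_15G098100. It was -1.15 for GLYMA_16G071500, -1.01 for GLYMA_03G249900, -0.79 for GLYMA_14G078300 and -0.715 for GLYMA_13G238400, which have no description, and 1.11 for GLYMA_15G209300. GLYMA_14G078300 was the most abundant of those without a description, with means of 175, 244, 428 and 345 CPM under CT, WD, HS and WD + HS.

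Among 297 tested non-coding features of the FPKM table, 2 had an interaction by limma on log2(FPKM + 1). ENSRNA050003648 had 80.2, 138 and 47.8 FPKM under CT and 136 FPKM in WD + HS replicate 3, with 12.5 in WD + HS replicate 1 and 4.93e-06 in WD + HS replicate 2, and was at or near 0 in the WD and HS libraries (interaction 9.97, adjusted p = 0.0334). With WD and HS at the floor, the size of that value depends on the pseudocount. ENSRNA050003548 had 16.6, 45.7 and 49.0 FPKM under CT and was at or near 0 in the 9 other libraries (adjusted p = 0.00172). With all 3 stress groups at the floor, its positive interaction is set by the floor and the pseudocount and is not read as a departure from the sum.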

How the results depend on the processing

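The count of genes with an interaction was 1435 with DESeq2, 1546 without a filter and 1035 with a stricter filter, and leaving out each library gave 761 to 1581. It fell to 363 and 447 with limma on FPKM at pseudocounts of 1 and 0.1. Of the 50 called genes named by rule, 21 kept the call in every refit, and of the 1038 refits of these genes 139 lost a call and 0 reversed. The effect of WD at 28°C was the least stable, with 137 genes at an absolute log2 change of at least 1, 1014 with DESeq2, 1016 without a filter, 170 and 168 with limma on FPKM (pseudocounts 1 and 0.1), and 266 to 1240 without single libraries. At an absolute log2 change of at least 1, the effect of WD at 38°C held 1402 genes, that of HS 2713 in watered and 3236 in WD plants, and WD + HS against CT 4001. Without a filter, the change had the direction of the sum and was smaller in size for 398 genes and larger in size for 416. Leaving out each library gave 125 to 339 genes whose change was smaller in size than the sum and 158 to 343 where it was larger in size. It also gave 441 to 935 genes opposite to the sum, and 438 to 589 low under WD + HS alone. The cause was not tested. With the replicate block, 1036 genes had an interaction and 577 were low under WD + HS alone, while of the 18 pairs of same-numbered libraries 1 had a correlation over 0.1. Depth limits genes of few reads.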
